A study of Mus musculus with 12 samples.

Results

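The 41 cell cycle and proliferation genes examined here were chosen by name for their known function, and all 41 were found among the 23420 genes counted in inguinal white adipose tissue (iWAT). They comprise 15 genes of the G1/S transition and S phase and 26 genes of G2 phase and mitosis. All 41 passed the filter on low counts, which 15306 genes passed in all. RNA was sequenced from 12 male C57BL/6 mice aged 10 weeks, in 4 groups of 3. The WT genotype was HIF2a loxP/loxP without Cre, and HIF2α AKO mice carried the same alleles together with Adipoq-Cre, which is active in adipocytes. Housing was either thermoneutral (TN), with 1 week at 30 °C, or cold, with 3 days at 4 to 6 °C. Every group therefore carried the floxed alleles, Cre and the loss of HIF2α came together, and temperature and length of exposure differed together. The numbers of the mice are the replicate numbers of the labels.

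A cell that commits to division first expresses genes for DNA replication, largely under E2F factors, and later expresses genes for mitosis under the MuvB complex with B-Myb and Foxm1. The products of S phase genes license and copy DNA, whereas those of G2/M genes build the spindle, separate chromosomes and destroy cyclins. Mature adipocytes do not divide, and the dividing cells of a fat depot are known to include preadipocytes, endothelial cells and immune cells. In whole tissue, fewer dividing cells and less of these transcripts per cell cannot be told apart.

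The libraries held between 22368316 and 35204631 counts on genes. Epas1, which encodes HIF2α, was at 360 ± 76.8 CPM (counts scaled to library size; SD, n = 3) in TN WT and 348 ± 53.8 in TN HIF2α AKO. In cold, Epas1 was at 627 ± 101 in WT and 826 ± 139 in HIF2α AKO, so it was not lower beyond the spread in mice labelled HIF2α AKO. These counts cover the whole gene and all cells of the depot, and do not isolate the adipocytes in which Cre is active. By RT-qPCR, the study reported lower Hif2a mRNA in iWAT of HIF2α AKO mice. Genotypes are given as labelled. A list of 12 skeletal muscle genes summed to 1783 CPM in cold HIF2α AKO mouse 1 and 2053 CPM in TN HIF2α AKO mouse 2, against at most 135 CPM in the other 10 libraries. A list of 7 epithelial genes summed to 214 CPM in TN WT mouse 3 and to at most 10.4 CPM elsewhere. Counts of calls without these 3 libraries are given beside the results.

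The promoters of the G2/M and the S phase members differed in short sequence elements that are known to time their expression. RefSeq promoter windows (GRCm38.p6), reaching from 250 bases before to 50 bases after the start, were found for 34 of the 41 members, 13 of S phase and 21 of G2/M. They were searched on both strands for the cell cycle homology region (CHR), as TTTGAA or TTCGAA, for an E2F element, as TTTCCCGC, TTTGCCGC, TTTCGCGC or TTTGGCGC, and for the CCAAT box. A CHR stood in 17 of the 21 G2/M members and in 3 of the 13 S phase members (Cdc45, Mcm2 and Mcm7), beside 21.7% of all 27025 genes with a window. An E2F element stood in 5 of the 13 S phase members (Cdc6, Mcm3, Mcm5, Mcm6 and Mcm7) and in 1 of the 21 G2/M members (Cdk1), beside 2.61% of all genes. A CCAAT box stood in 19 of 21 and 9 of 13, beside 41.1% of all genes. All 17 G2/M members with a CHR also held a CCAAT box, a combination that 8.61% of all genes held. Ccnb1, Cenpe, Birc5 and Nusap1 held no CHR in this window. Other genes of the same phases, from lists described further on, held a CHR in 27 of 39 (G2/M) and 5 of 30 (replication) and an E2F element in 4 of 39 and 14 of 30. These matches describe letters and show no binding of a factor.

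The upstream sequences of 7 members are shown because they represent these arrangements and because their genes recur in the results. Each is written 5′ to 3′ along the gene with its position on GRCm38.p6, and capitals mark the matches. In Mki67, 2 CHR elements follow 3 CCAAT boxes, and Top2a holds 4 CHR elements among 6 CCAAT boxes. Cdk1 combines an E2F element with a CHR, and another CHR closer to its start is not shown. Ccnb2 holds a CHR and then 3 CCAAT boxes, and another CHR at base 5 of the transcript is not shown. Aurka shows 2 CCAAT boxes, and its CHR lies at base 33 of the transcript and is not shown. In Mcm5 and Mcm6, a pair of E2F matches overlap on opposite strands, and Mcm6 holds another closer to its start.
Mki67 (chr7:135716460-135716579, minus strand): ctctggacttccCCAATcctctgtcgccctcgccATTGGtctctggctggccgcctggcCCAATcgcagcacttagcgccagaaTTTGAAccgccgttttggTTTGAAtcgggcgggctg
Top2a (chr11:99024195-99024428, minus strand): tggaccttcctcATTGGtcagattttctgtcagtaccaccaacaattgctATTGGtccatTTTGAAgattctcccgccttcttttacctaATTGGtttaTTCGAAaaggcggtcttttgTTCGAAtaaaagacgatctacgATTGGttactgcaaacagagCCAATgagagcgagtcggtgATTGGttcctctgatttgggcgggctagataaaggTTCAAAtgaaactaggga
Cdk1 (chr10:69352944-69353132, minus strand): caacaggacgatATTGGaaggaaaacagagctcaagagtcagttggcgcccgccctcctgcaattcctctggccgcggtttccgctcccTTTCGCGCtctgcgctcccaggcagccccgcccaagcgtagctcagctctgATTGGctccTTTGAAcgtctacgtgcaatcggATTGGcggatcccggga
Ccnb2 (chr9:70421559-70421733, minus strand): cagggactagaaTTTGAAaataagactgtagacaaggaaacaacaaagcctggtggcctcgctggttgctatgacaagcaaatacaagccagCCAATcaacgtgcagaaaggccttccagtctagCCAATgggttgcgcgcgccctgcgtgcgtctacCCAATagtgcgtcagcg
Aurka (chr2:172370573-172370633, minus strand): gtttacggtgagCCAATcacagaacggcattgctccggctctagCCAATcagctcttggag
Mcm5 (chr8:75109344-75109503, plus strand): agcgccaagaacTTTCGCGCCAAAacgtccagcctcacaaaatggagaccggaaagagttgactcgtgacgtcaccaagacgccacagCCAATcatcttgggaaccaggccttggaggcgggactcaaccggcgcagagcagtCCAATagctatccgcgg
Mcm6 (chr1:128359706-128359827, minus strand): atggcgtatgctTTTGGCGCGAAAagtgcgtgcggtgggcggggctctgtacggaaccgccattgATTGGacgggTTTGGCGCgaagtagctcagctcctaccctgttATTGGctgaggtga

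To compare the phases in each mouse, the log2 CPM of every member was centred on its mean over the 12 libraries, and these values were averaged over the 15 S phase and the 26 G2/M members. A score of 1 thus means a level 1 log2 unit above the average library. In TN WT, the S phase score was 0.14, 0.65 and -0.16 in mice 1 to 3, and the G2/M score was 0.36, 1.21 and -0.36. In TN HIF2α AKO, the S phase scores were 0.41, -0.05 and -0.02, and the G2/M scores were 0.88, 0.03 and 0.01. In cold WT, the S phase scores were -0.10, 0.10 and -0.24, beside G2/M scores of -0.27, 0.22 and -0.42. In cold HIF2α AKO, the S phase scores were -0.30, -0.32 and -0.13, beside G2/M scores of -0.63, -0.66 and -0.36. TN WT mouse 2 and TN HIF2α AKO mouse 1 stood highest on both scores, and the cold HIF2α AKO mice 1 and 2 lowest.

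**Figure D1:**
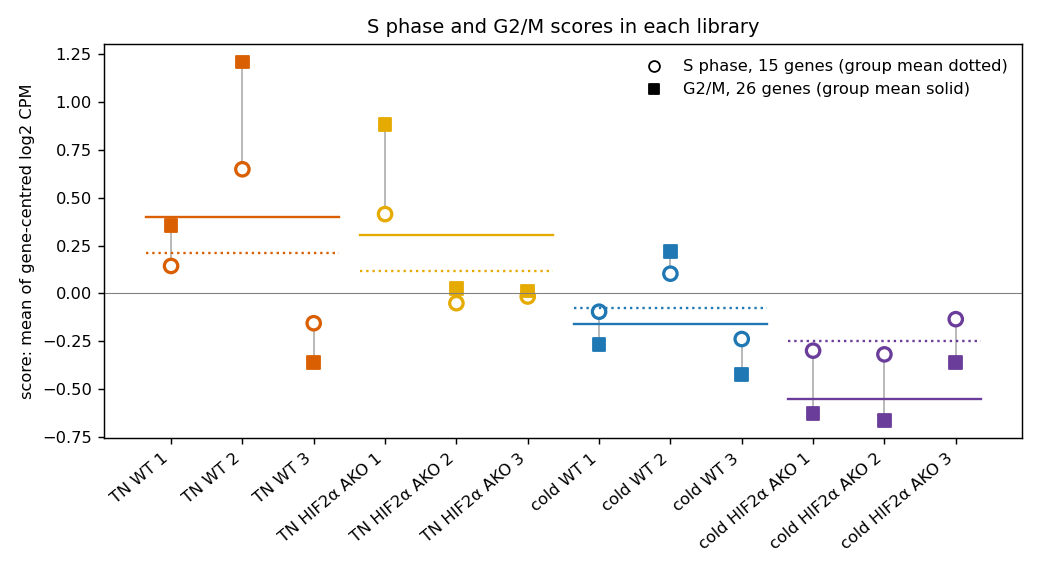
Score of the 15 S phase genes (open circles) and the 26 G2/M genes (filled squares) in each of the 12 libraries, as the mean of gene-centred log2 CPM. Horizontal lines mark group means (dotted for S phase, solid for G2/M). The G2/M squares span from -0.66 to 1.21 and the S phase circles from -0.32 to 0.65, and the widest spread is within TN WT.

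Both scores had the same sign in 10 of the 12 libraries, and the G2/M score moved further. The other two were TN HIF2α AKO mice 2 and 3, whose scores lay between -0.05 and 0.03. Over the 12 libraries, the S phase score had a range of 0.97 and the G2/M score a range of 1.87. The difference G2/M minus S was 0.56 in TN WT mouse 2 and 0.47 in TN HIF2α AKO mouse 1, and it lay between -0.35 and -0.22 in the cold HIF2α AKO mice. In summed CPM, the G2/M members reached 1.07 times the S phase members in TN WT mouse 2 and between 0.545 and 0.583 times in the cold HIF2α AKO mice. The summed level of the G2/M members lay between 222 and 722 CPM in TN WT and between 294 and 553 CPM in TN HIF2α AKO. It lay between 213 and 337 CPM in cold WT and between 181 and 225 CPM in cold HIF2α AKO. Both TN groups overlapped cold WT, whereas all TN HIF2α AKO mice lay above all cold HIF2α AKO mice.

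The same mice headed almost every gene. All 26 G2/M members had their highest level in TN WT mouse 2 and their next highest in TN HIF2α AKO mouse 1. Of the 15 S phase members, 12 were highest in TN WT mouse 2, and 11 had these mice as their top pair. The exceptions in the first place were Ccne1, which was highest in TN HIF2α AKO mouse 1, Cdc45, which was highest in cold WT mouse 3, and Tyms, which was highest in cold HIF2α AKO mouse 1. At the other end, 16 members had their lowest level in cold HIF2α AKO mouse 2, 12 in cold HIF2α AKO mouse 1, 5 in TN WT mouse 3 and 5 in cold WT mouse 3.

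**Figure D2:**
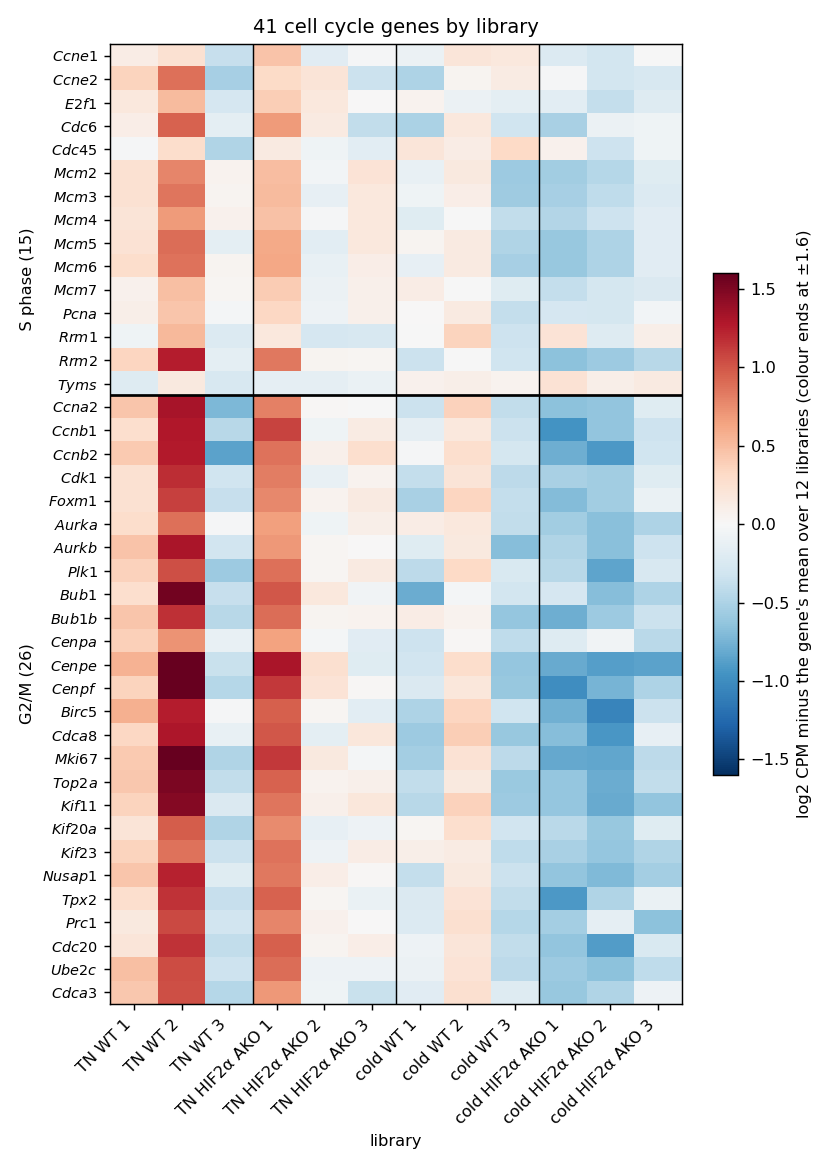
Log2 CPM of the 41 members in each of the 12 libraries, centred on the mean of each gene, with red above and blue below its mean. S phase members are above the line and G2/M members below it. TN WT 2 and TN HIF2α AKO 1 are red in nearly all rows, and the G2/M rows are deeper in colour than the S phase rows.

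The spread between mice of a group was larger for these genes than for most genes, and larger for G2/M than for S phase. The SD of log2 CPM within groups had a median of 0.52 over the G2/M members, from 0.33 for Cenpa to 0.67 for Cenpe, and of 0.31 over the S phase members, from 0.12 for Tyms to 0.44 for Cdc6. The median over all 15306 genes was 0.22. In TN WT alone, the G2/M median was 0.77, and in cold HIF2α AKO it was 0.23, beside 0.18 and 0.17 over all genes. The S phase median in cold HIF2α AKO was 0.14, below that over all genes. Among the 6 TN mice, the highest CPM of a G2/M member was 2.90 times its lowest as a median, and 4.35 times for Ccnb2. For the S phase members the median was 1.76 times. Mean counts per library lay between 45.2 for Ccne2 and 1840 for Pcna.

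Levels per kilobase of exon were higher for S phase genes. In TN WT, the median level was 6.94 CPM per kb over the S phase members and 2.95 over the G2/M members, and in cold HIF2α AKO it was 4.03 and 1.49. Pcna, the sliding clamp of DNA polymerases, stood highest at a mean of 28.1 CPM per kb over all libraries. It was followed by Mcm4, Mcm7, Mcm3, Mcm6 and Mcm5, subunits of the replicative helicase, at 9.71 to 11.8 CPM per kb. Mki67 led the G2/M members at 6.16 CPM per kb, and Cenpf was lowest at 0.419 CPM per kb.

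The first comparison asks how these genes differed between cold and TN in each genotype. Fold changes come from edgeR's quasi-likelihood test on all 15306 genes, and every adjusted p is a Benjamini-Hochberg value over that whole table. In WT, 38 of 41 members had a lower fitted level in cold, and 1, Mcm4, passed an adjusted p of 0.05, beside 5.68% of all genes called lower. In HIF2α AKO, 39 of 41 had a lower fitted level, and 4 passed, namely Aurka, Mcm4, Nusap1 and Mcm7, beside 11.5% of all genes. In this edgeR fit, the members called were 2.44% of the 41 in WT and 9.76% in HIF2α AKO, below the shares of all genes. In HIF2α AKO, DESeq2, voom and some omissions of single libraries turned this order, and other omissions kept it, as given further on. In WT, DESeq2 and voom kept it, and of the single omissions only that of TN WT mouse 3 turned it. The median log2 fold change in WT was -0.42 over the S phase and -0.64 over the G2/M members, beside -0.03 over all genes. In HIF2α AKO, it was -0.44 and -0.90, beside -0.05 over all genes. No member was called higher in either genotype. At an unadjusted p under 0.05, 10 members were lower in WT, beside 16.3% of all genes, and 24 in HIF2α AKO, beside 21.4%.

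**Figure D3:**
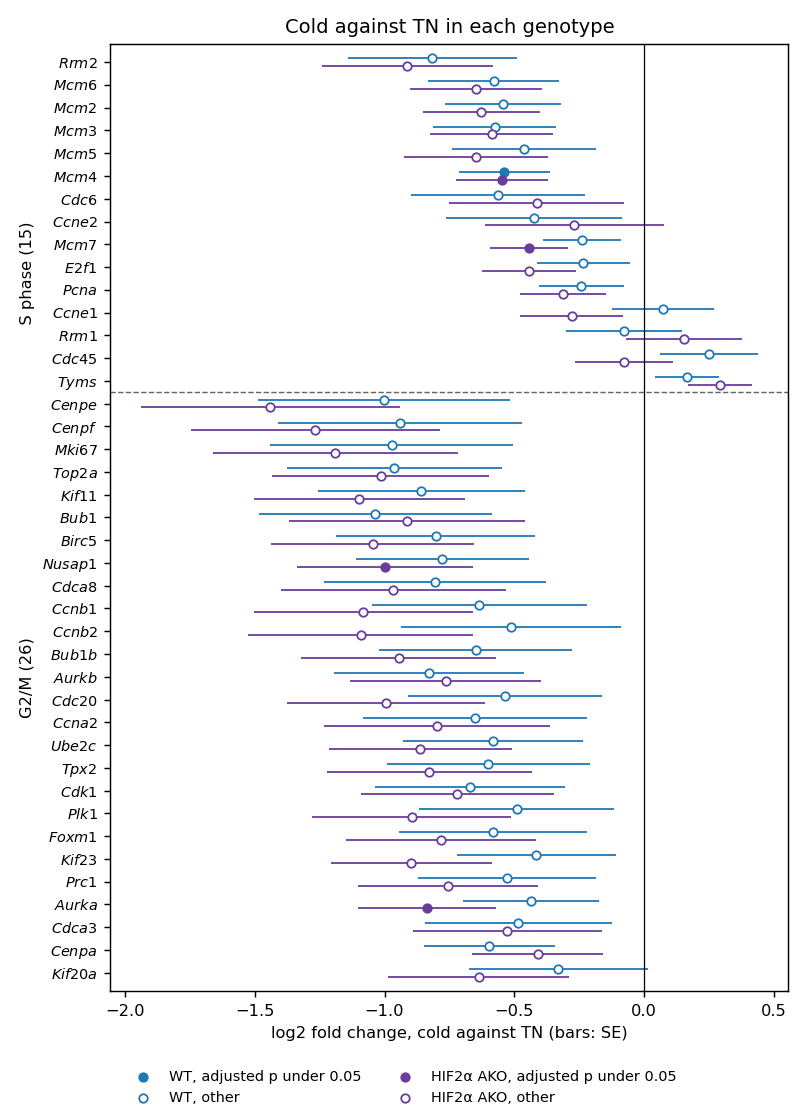
Log2 fold change of cold against TN for the 41 members in WT and HIF2α AKO, with bars of 1 SE from the edgeR fit and filled points where the adjusted p is under 0.05. The S phase members stand above the G2/M members. Of the fitted values, 38 in WT and 39 in HIF2α AKO are below 0, the G2/M points further than the S phase points, and Tyms lies above 0 in both genotypes.

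Of the factors that start S phase, neither Ccne1 nor E2f1 passed within a genotype. Ccne1, cyclin E1 of the G1/S transition, was at 12.1, 13.2 and 8.67 CPM in TN WT and 10.5, 12.7 and 12.6 in cold WT. It was at 15.3, 9.80 and 10.96 CPM in TN HIF2α AKO and 9.54, 9.13 and 11.1 in cold HIF2α AKO. These ranges overlapped in both genotypes, with fitted log2 fold changes of 0.07 ± 0.20 (SE) and -0.28 ± 0.20. E2f1, the activator of replication genes, was at 12.8, 16.1 and 9.42 CPM in TN WT and 11.8, 10.6 and 10.2 in cold WT. It was at 14.9, 12.7 and 11.4 in TN HIF2α AKO and 10.1, 8.77 and 9.82 in cold HIF2α AKO, without overlap in this genotype. Its log2 fold change there was -0.44 ± 0.18, with an adjusted p of 0.0865.

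The subunits of the Mcm2-7 helicase, which unwinds DNA at replication origins, had lower fitted levels in cold in both genotypes. Mcm4 (chr16:15623897-15637400 on GRCm38) was at 47.6, 66.4 and 43.4 CPM in TN WT and at 36.02, 40.97 and 31.4 in cold WT. It was at 56.99, 40.8 and 46.4 in TN HIF2α AKO and at 29.7, 32.7 and 36.3 in cold HIF2α AKO. All cold mice were below all TN mice of their genotype. Mcm4 fell by 0.54 ± 0.17 (SE) in WT and 0.55 ± 0.18 in HIF2α AKO on the log2 scale, with adjusted p-values of 0.0495 and 0.0410. In WT, it was the 1 member of 41 that was lower without overlap, beside 19.3% of all genes. Mcm7 (chr5:138164583-138172422) was at 64.04, 45.4 and 50.9 CPM in TN HIF2α AKO and at 37.04, 39.6 and 41.1 in cold HIF2α AKO. It fell by 0.44 ± 0.15 with an adjusted p of 0.049999, just inside the limit. In WT, Mcm7 was at 50.8, 67.7 and 49.6 CPM in TN and 52.4, 47.9 and 42.1 in cold, which overlapped.

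The other helicase subunits gave larger spreads and no call within a genotype. Mcm3 was at 45.6, 69.7 and 39.6 CPM in TN WT and 36.6, 41.4 and 25.99 in cold WT, with a log2 fold change of -0.58 ± 0.24 and an adjusted p of 0.0991. In HIF2α AKO, Mcm3 was at 54.8, 34.9 and 43.3 CPM in TN and 26.5, 28.9 and 32.9 in cold. Mcm5 was at 43.4, 68.8 and 33.4 CPM in TN WT and 38.3, 40.9 and 26.5 in cold WT. In HIF2α AKO, Mcm5 was at 56.3, 32.8 and 41.7 CPM in TN and 24.3, 26.4 and 32.7 in cold, where the highest cold mouse was just below the lowest TN mouse. Its log2 fold change there was -0.65 ± 0.28, with an adjusted p of 0.0992.

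None of the 4 genes of nucleotide supply and of the fork passed within a genotype. Rrm2, the cell cycle-bound subunit of ribonucleotide reductase, was at 17.5, 32.97 and 12.3 CPM in TN WT and 10.9, 13.7 and 11.02 in cold WT. It was at 24.7, 14.2 and 14.1 in TN HIF2α AKO and 8.72, 9.25 and 10.1 in cold HIF2α AKO. Its log2 fold changes were -0.82 ± 0.33 in WT and -0.91 ± 0.33 in HIF2α AKO, with adjusted p-values of 0.0909 and 0.0592. Rrm1, the large subunit of the same enzyme, was at 45.7, 68.4 and 40.97 CPM in TN WT and 47.7, 61.3 and 37.9 in cold WT. It was at 53.6, 39.8 and 39.9 in TN HIF2α AKO and 55.6, 41.6 and 51.00 in cold HIF2α AKO. Rrm1 overlapped between TN and cold in both genotypes, with log2 fold changes of -0.08 ± 0.22 in WT and 0.15 ± 0.22 in HIF2α AKO. Tyms, thymidylate synthase, lay at 8.10 to 8.34 CPM in TN HIF2α AKO and 9.57 to 10.6 in cold HIF2α AKO, the 1 member that was higher in cold without overlap. Its log2 fold change of 0.29 ± 0.12 did not pass (adjusted p = 0.0986). Pcna was at 71.00, 90.4 and 65.02 CPM in TN WT and 66.8, 73.5 and 51.2 in cold WT. It was at 83.6, 63.2 and 70.2 in TN HIF2α AKO and 55.2, 54.7 and 64.7 in cold HIF2α AKO, with overlap in both genotypes.

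The regulators of entry into mitosis had a lower fitted level in cold in every case, without a call within a genotype. Cdk1, the kinase that drives mitosis, was at 8.12, 15.6 and 5.53 CPM in TN WT and 5.28, 7.95 and 5.15 in cold WT. In HIF2α AKO, Cdk1 was at 12.1, 6.31 and 7.14 CPM in TN and 4.79, 4.66 and 6.01 in cold. The WT groups overlapped and the HIF2α AKO groups did not, with log2 fold changes of -0.67 ± 0.37 and -0.72 ± 0.37 (adjusted p = 0.194 and 0.159). Ccnb1, cyclin B1, was at 8.17, 16.5 and 4.98 CPM in TN WT and 6.13, 7.60 and 5.35 in cold WT. It was at 14.3, 6.47 and 7.42 in TN HIF2α AKO and 3.49, 4.38 and 5.41 in cold HIF2α AKO. Foxm1, the transcription factor of G2/M genes, was at 12.6, 22.8 and 8.29 CPM in TN WT and 7.43, 13.5 and 8.17 in cold WT. It was at 18.1, 11.1 and 11.8 in TN HIF2α AKO and 6.59, 7.24 and 9.94 in cold HIF2α AKO. For Ccnb1 and Foxm1 as well, groups overlapped in WT and stood apart in HIF2α AKO.

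Of the mitotic kinases, Aurka passed in HIF2α AKO. Aurka (chr2:172356190-172370535), which acts at the spindle poles, was at 6.82, 10.4 and 5.56 CPM in TN WT and 6.13, 6.37 and 4.30 in cold WT, which overlapped. It was at 8.92, 5.37 and 6.04 in TN HIF2α AKO and 3.83, 3.54 and 4.01 in cold HIF2α AKO, where it fell by 0.84 ± 0.27 on the log2 scale (adjusted p = 0.0403). Aurkb, the kinase of the chromosomal passenger complex, was at 10.3, 18.5 and 6.04 CPM in TN WT and 6.53, 8.37 and 4.67 in cold WT. It was at 12.2, 7.66 and 7.49 in TN HIF2α AKO and 5.37, 4.70 and 5.97 in cold HIF2α AKO. Plk1, which acts from centrosome maturation to cytokinesis, was at 10.7, 17.03 and 5.53 CPM in TN WT and 6.22, 10.4 and 7.04 in cold WT. It was at 15.3, 8.48 and 9.19 in TN HIF2α AKO and 6.10, 4.62 and 6.97 in cold HIF2α AKO. For Aurkb and Plk1 the WT groups overlapped, and every cold HIF2α AKO mouse was below every TN HIF2α AKO mouse.

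The proliferation marker Mki67 and the topoisomerase Top2a, which untangles sister chromatids, were the most abundant G2/M members in CPM. Mki67 (chr7:135689784-135716361) was at 71.9, 164 and 38.4 CPM in TN WT and at 36.6, 63.01 and 39.9 in cold WT. It was at 117, 59.8 and 52.3 CPM in TN HIF2α AKO and at 30.3, 30.1 and 40.1 in cold HIF2α AKO. The log2 fold changes were -0.97 ± 0.47 in WT and -1.19 ± 0.47 in HIF2α AKO, with adjusted p-values of 0.146 and 0.0794. Top2a was at 51.9, 110 and 29.2 CPM in TN WT and 29.3, 42.98 and 25.5 in cold WT. It was at 73.7, 40.04 and 40.7 in TN HIF2α AKO and 25.03, 22.1 and 29.3 in cold HIF2α AKO. In both genes TN WT mouse 3 lay within the range of cold WT, and the HIF2α AKO groups did not overlap.

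Among spindle and centromere genes, Nusap1 passed in HIF2α AKO. Nusap1 (chr2:119618298-119651244), a microtubule-binding spindle protein, was at 14.4, 8.64 and 8.13 CPM in TN HIF2α AKO and 5.18, 4.91 and 5.49 in cold HIF2α AKO, and it fell by 1.00 ± 0.34 (adjusted p = 0.0496). In WT, Nusap1 was at 10.9, 18.8 and 6.99 CPM in TN and 6.13, 8.97 and 6.32 in cold, with a log2 fold change of -0.78 ± 0.33. Kif23, a kinesin of cytokinesis, was at 20.3, 10.6 and 12.2 CPM in TN HIF2α AKO and 7.80, 7.28 and 8.01 in cold HIF2α AKO. It was at 14.3, 20.4 and 8.80 in TN WT and 11.9, 12.3 and 8.41 in cold WT, which overlapped. The largest fitted differences of the 41 members in HIF2α AKO were those of the kinetochore proteins Cenpe and Cenpf, at -1.44 ± 0.50 and -1.27 ± 0.48 (adjusted p = 0.0525 and 0.0696). Over all members, 30 of 41 were lower in cold HIF2α AKO without overlap, 22 of G2/M and 8 of S phase, beside 25.6% of all genes.

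**Figure D4:**
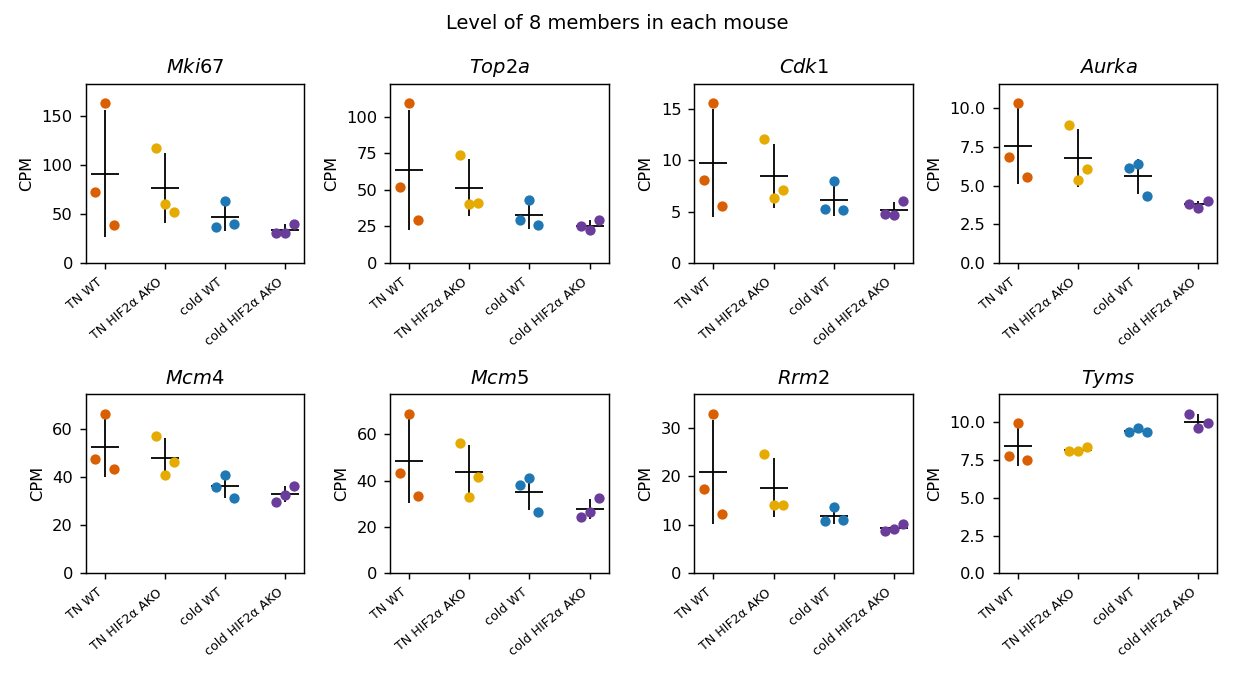
CPM of 8 members in each mouse (points), with the group mean and SD, n = 3 per group. Mki67, Top2a, Cdk1, Aurka, Mcm4, Mcm5 and Rrm2 are spread more widely in the TN groups than in cold HIF2α AKO, and Tyms stays between 7.51 and 10.6 CPM.

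The counts of calls within a genotype depended on single libraries and on the tool. In WT, 11 members (26.8%, beside 6.81% of all genes) passed without TN WT mouse 3, which carried the epithelial transcripts. Without cold WT mouse 2, 2 passed (4.88%, beside 7.02%). No member passed in WT without TN WT mouse 1 or 2, cold WT mouse 1 or 3, TN HIF2α AKO mouse 3 or any of the cold HIF2α AKO mice, each left out alone. In those fits, between 1.01% and 5.37% of all genes were called lower. The median of the G2/M members in WT was -0.19 without TN WT mouse 2, and that of the S phase members -0.11. In HIF2α AKO, 0 members passed without TN WT mouse 1, TN HIF2α AKO mouse 1, cold WT mouse 1, cold WT mouse 2, cold HIF2α AKO mouse 1, cold HIF2α AKO mouse 2 or cold HIF2α AKO mouse 3, each alone. Of all genes, between 2.03% and 9.83% were called lower in HIF2α AKO with these omissions. The count was 19 without TN WT mouse 2 (46.3%, beside 11.8% of all genes), 20 without TN WT mouse 3 (48.8%, beside 12.5%) and 1 without TN HIF2α AKO mouse 3 (2.44%, beside 5.34%). Without TN HIF2α AKO mouse 1, the G2/M median in HIF2α AKO was -0.58. In HIF2α AKO, DESeq2 called 16 members lower (39% of the 41, beside 15.4% of all genes) and voom 13 (31.7%, beside 19.1%). In WT, DESeq2 called 1 member (2.44%, beside 11.6% of all genes) and voom 2 (4.88%, beside 10.5%). Without the 3 libraries with muscle or epithelial transcripts, an omission chosen after the data were seen, 5 members passed in WT (12.2%, beside 7.15% of all genes) and 1 in HIF2α AKO (2.44%, beside 2.4%).

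The cold effect was also averaged over both genotypes, a contrast chosen after the data were seen. In this contrast of 6 against 6 mice, 29 of 41 members were lower in cold at an adjusted p under 0.05 and 0 were higher, with 21 of 26 of G2/M and 8 of 15 of S phase. Of all genes, 24.0% were called lower and 24.8% higher. The median log2 fold change was -0.78 over the G2/M and -0.35 over the S phase members, beside -0.05 over all genes. No member was without overlap between the 6 TN and the 6 cold mice. Mki67 fell by 1.08 ± 0.33, Top2a by 0.99 ± 0.29, Cenpe by 1.22 ± 0.35 and Cdk1 by 0.69 ± 0.26, with adjusted p-values of 0.0207, 0.0182, 0.0149 and 0.0462. Of the S phase members, Mcm4 fell by 0.54 ± 0.12, Rrm2 by 0.86 ± 0.23 and Mcm2 by 0.58 ± 0.16, with adjusted p-values of 0.00533, 0.0111 and 0.0118. Without TN WT mouse 2, 14 members were lower (34.1%, beside 19.1% of all genes) and 1 was higher. The count of lower members was 11 without TN HIF2α AKO mouse 1 (26.8%, beside 17.3%) and 18 without cold WT mouse 1 (43.9%, beside 22.1%). It was 13 without cold WT mouse 3 (31.7%, beside 18.5%) and 14 without cold HIF2α AKO mouse 1 (34.1%, beside 17%). Without cold HIF2α AKO mouse 2 it was 15 (36.6%, beside 19.7%), and without TN WT mouse 3 it was 35 (85.4%, beside 24.1%). Without the 3 libraries with muscle or epithelial transcripts, it was 33 (80.5%, beside 19.7%).

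By role, all 5 centromere and passenger genes, both chromosome structure and marker genes, 4 of 5 mitotic cyclins and regulators and 4 of 5 mitotic kinases and checkpoint genes passed in the averaged contrast. So did 4 of 6 spindle and cytokinesis genes and 2 of 3 genes that act with the anaphase-promoting complex or other ubiquitin ligases. These counts stand beside the 24.0% of all genes called lower in this contrast. Of S phase, 6 of 8 genes of origin licensing and firing passed, 1 of 4 genes of the fork and nucleotide supply (Rrm2), which is near that background, and 1 of 3 G1/S cyclins and E2F genes (E2f1). The 12 members that did not pass were Ccne1, Ccne2, Cdc6, Cdc45, Pcna, Rrm1 and Tyms of S phase and Plk1, Tpx2, Ccna2, Kif20a and Cdca3 of G2/M. Of these, Tyms had a log2 fold change of 0.23 ± 0.09 with an adjusted p of 0.0504, and Plk1 one of -0.69 ± 0.27 with an adjusted p of 0.0512.

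Genes outside the members were taken from lists written with earlier results of these data known. Of 40 other replication genes, 26 were lower and 2 higher in cold over both genotypes, with a median log2 fold change of -0.49. Of 50 other G2/M genes, 37 were lower and 1 higher, with a median of -0.75. Smc4, a condensin subunit, fell by 0.73 ± 0.14, and Rfc3, a clamp loader subunit, by 0.48 ± 0.10, with adjusted p-values of 0.00181 and 0.00329. A list of 33 genes around the control of G0 and G1 also held Mybl2, which encodes B-Myb, and MuvB genes such as Lin9 and Lin54. It is therefore not confined to G0 and G1. Of these 33 genes, 9 were lower and 3 higher, with a median of -0.08, beside 24.0% of all genes lower and 24.8% higher. The lower count is thus near the background. Among the 33, Rbl1, the pocket protein p107, fell by 0.72 ± 0.09 and Cdkn1b, the CDK inhibitor p27, by 0.63 ± 0.10, with adjusted p-values of 0.000195 and 0.000632. Tfdp1, the partner of E2F factors, was higher by 0.32 ± 0.06 on the log2 scale, with an adjusted p of 0.00225. Tfdp1 also passed in each genotype, with log2 fold changes of 0.33 ± 0.09 in WT and 0.32 ± 0.09 in HIF2α AKO. So did Rbl1 and Cdkn1b, with log2 fold changes of -0.73 ± 0.13 and -0.56 ± 0.14 in WT and -0.71 ± 0.13 and -0.69 ± 0.14 in HIF2α AKO.

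The next comparison asks whether the loss of HIF2α in adipocytes went with other levels of these genes in cold. No member passed the edgeR test, with 0 of 41 also at an unadjusted p under 0.05 and 0 by DESeq2 and voom after adjustment. Of all genes, 0.00653% were called, and 1.27% were lower at an unadjusted p under 0.05. The fitted level was lower in HIF2α AKO for 38 of 41 members, with a median log2 difference of -0.43 over the G2/M and -0.23 over the S phase members, beside -0.02 over all genes. In 10 of 41 members, 6 of G2/M and 4 of S phase, every HIF2α AKO mouse was below every WT mouse, beside 3.73% of all genes. Several members stand in a list of genes lower in cold HIF2α AKO that the study drew from these same libraries, so that their direction is not independent of it.

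Aurka had the smallest p of the members in cold. Its 3 HIF2α AKO mice, at 3.54 to 4.01 CPM, were below the 3 WT mice at 4.30 to 6.37, and the log2 difference was -0.56 ± 0.27 with a 95% interval of -1.15 to 0.03. Mcm7 was at 37.04 to 41.1 CPM in HIF2α AKO and 42.1 to 52.4 in WT, a difference of -0.27 ± 0.15 with an interval of -0.61 to 0.06. Cdc45, which activates the helicase, was at 9.68, 7.32 and 8.81 CPM in cold HIF2α AKO and at 10.6, 10.04 and 11.5 in cold WT, a difference of -0.31 ± 0.19 with an interval of -0.73 to 0.10. At TN, Cdc45 was at 10.2, 8.82 and 8.23 CPM in HIF2α AKO and 9.14, 11.2 and 6.58 in WT, which overlapped. Mki67 overlapped between genotypes in cold, with a difference of -0.47 ± 0.47 and an interval of -1.50 to 0.56. The medians depended on cold WT mouse 2, the highest cold mouse on both scores. Without it they were -0.15 for G2/M and -0.05 for S phase, and the fitted differences of Cdk1, Foxm1 and Pcna turned positive (0.02, 0.05 and 0.01).

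At TN, 0 of 41 members passed, 0 were under an unadjusted p of 0.05, and DESeq2 and voom called 0, beside 0.00653% of all genes called by edgeR and 1.65% lower at an unadjusted p under 0.05. The median difference of HIF2α AKO against WT was -0.19 over the G2/M and -0.15 over the S phase members, and no member was without overlap. The smallest p belonged to Rrm1, Aurkb and Mcm3, with log2 differences of -0.22 ± 0.22, -0.35 ± 0.36 and -0.22 ± 0.23. Without TN WT mouse 2, the medians became 0.34 for G2/M and 0.09 for S phase, so 1 mouse set the direction at TN.

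The interaction asks whether the cold effect differed between genotypes. No member passed in edgeR, 0 were under an unadjusted p of 0.05, and DESeq2 and voom called 0. Of all genes, 0.0% passed, with 151 higher and 176 lower at an unadjusted p under 0.05. The smallest p belonged to Ccne1, Cdc45 and Kif23, at -0.35 ± 0.28, -0.33 ± 0.27 and -0.48 ± 0.43. For Mki67, the difference of the cold effects was -0.22 ± 0.66, with an interval of -1.66 to 1.23. The larger count of members called in HIF2α AKO than in WT was therefore not shown to be a difference between genotypes.

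Some marker lists of other cell types moved with the scores and others did not, and their part in these differences was not tested. A list of 9 genes of B cells and lymphoid follicles summed to 960 to 1464 CPM in TN WT, 967 to 1380 in TN HIF2α AKO, 619 to 888 in cold WT and 560 to 877 in cold HIF2α AKO, and 0 of its 9 genes was at 0 in any group. Its score was highest in TN WT mouse 2 (0.89) and TN HIF2α AKO mouse 1 (0.74), the mice with the highest G2/M scores, and these mice were the top pair for 6 of its 9 genes. Bcl6, also of this list, ran the other way, at 53.1 to 99.7 CPM in the TN mice and 71.2 to 166 in the cold mice. Whether the lymph node of the inguinal depot was removed before RNA was prepared is not given in the sources used here.

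The list of 8 white adipocyte genes moved the other way. It summed to 5194 to 12844 CPM in TN WT, 8067 to 14218 in TN HIF2α AKO, 18111 to 35584 in cold WT and 22064 to 26821 in cold HIF2α AKO, and 0 of its genes was at 0. TN WT mouse 2 was lowest for 7 of its 8 genes, with a score of -1.43. In the same order of groups, 10 lymphocyte genes summed to 1142 to 1747, 1067 to 1780, 626 to 1088 and 625 to 943 CPM. The 13 macrophage genes summed to 1757 to 3063, 2829 to 3058, 1451 to 2907 and 1624 to 1895 CPM. The 5 neutrophil genes summed to 83.0 to 181, 114 to 223, 54.95 to 115 and 55.2 to 106 CPM. The 8 progenitor genes summed to 1091 to 1331, 1247 to 1320, 855 to 1128 and 851 to 1080.3 CPM. The 8 endothelial genes summed to 873 to 1141, 904 to 1049.9, 1044 to 1150.1 and 1102.5 to 1228.5 CPM. The 8 thermogenic genes, which mark brown and beige adipocytes, summed to 28.4 to 82.2, 45.3 to 90.6, 3350.3 to 4864 and 5622 to 8582.5 CPM. In each of these lists 0 genes were at 0 in any group. Of 4 erythroid genes, 2 were at 0 in every group, and the sums were 86.4 to 104, 145 to 332, 295 to 739 and 285 to 454 CPM. The endothelial score of TN WT mouse 2, at -0.32, was the lowest of the 12, and its macrophage score, at 0.18, was not the highest.

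**Figure D5:**
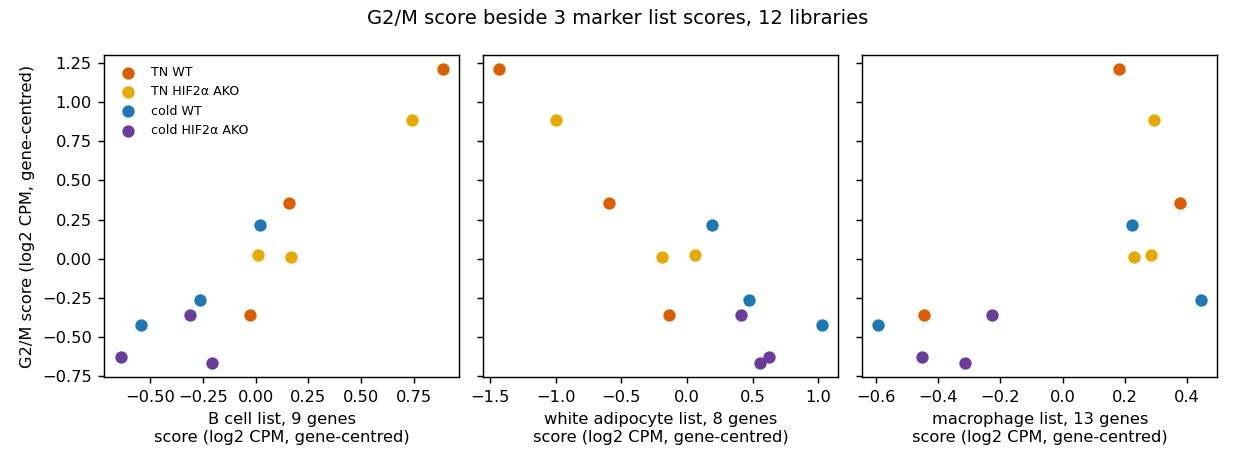
G2/M score of each of the 12 libraries against its score on the B cell list (9 genes), the white adipocyte list (8 genes) and the macrophage list (13 genes), all as gene-centred log2 CPM and coloured by group. The mice with G2/M scores of 1.21 and 0.88 have the highest B cell and the lowest white adipocyte scores, and neither has the highest macrophage score.

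In 9 members, exons overlap another counted gene on the other strand, among them Mcm7 (Ap4m1 and Cops6) and Nusap1 (Oip5). The strand setting of the counting is not given in the sources used here, so reads from such partners cannot be told apart.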

How the data were processed

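RNA-seq of iWAT from 12 mice was analysed. The authors trimmed reads with Trim Galore 0.4.4, mapped them to GRCm38/mm10 with STAR 2.6.1d and deposited whole read counts per gene from HTSeq 0.13.5; the submitters' notes also name DESeq2 1.30.0. The annotation and strand setting are not given in the sources used here. Tallies of reads outside genes (21.9 to 27.0% of each library) were left out. Genes were filtered with filterByExpr (minimum count 10, minimum total 15) and tested with edgeR 4.0.16 (R 4.3.3; quasi-likelihood, TMM, 1 factor of 4 groups over all 12 libraries, 8 residual degrees of freedom), with Benjamini-Hochberg adjustment over all genes at a limit of 0.05. DESeq2 1.42.0 and voom (limma 3.58.1) were alternatives. CPM are TMM-scaled, and scores use log2 CPM with a prior count of 2. Intervals of 95% use 11.0 degrees of freedom and, like all p-values, cover the spread between these mice. No pair of replicates matched within sampling noise (chi-square per degree of freedom of at least 30.2). Scripts were tested on simulated data.

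The members were named for their known function, but both they and the lists were chosen with earlier results of these data known. Values per library are printed for 11 members named by function and for the 3 members with the smallest p in each of 5 contrasts. Replicate numbers were not taken to pair mice in the main fit. Of 18 same-numbered pairs, 5 deviated together (r over 0.1, range -0.43 to 0.39). Pairs with different numbers were not compared, so these values cannot decide whether mice were paired.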

Additional observations from a re-analysis of the deposited data

How the results depend on the processing

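Of 41 members, 1 was called in WT and 4 in HIF2α AKO between cold and TN. In WT the count was 2 with voom (4.88% of members, beside 10.5% of all genes called lower) and 0 with robust estimation (beside 5.58%). It was 0 with only the 6 libraries compared (beside 1.9%) and 5 without the 3 libraries with muscle or epithelial transcripts (12.2%, beside 7.15%). In HIF2α AKO it was 2 with DESeq2 size factors (4.88%, beside 10.3%), 8 with upper quartile scaling (19.5%, beside 18.4%), 0 without a filter (beside 6.41%), 16 with DESeq2 (39%, beside 15.4%), 13 with voom (31.7%, beside 19.1%), 2 with robust estimation (4.88%, beside 11.3%), 19 with only the 6 libraries compared (46.3%, beside 11.7%) and 1 without those 3 libraries. With the replicate block it was 0 in WT (beside 3.55% of all genes) and 0 in HIF2α AKO (beside 7.99%). Averaged over genotypes, it was 21 with the block (51.2%, beside 20.7%) and 29 without it. The cause of these shifts was not tested. Leaving out 1 library gave counts from 0 to 11 in WT, 0 to 20 in HIF2α AKO and 11 to 35 averaged. Medians of the S phase and G2/M members then ranged from -0.66 to -0.11 and -0.95 to -0.19 in WT, -0.53 to -0.29 and -1.07 to -0.58 in HIF2α AKO, -0.49 to -0.27 and -0.93 to -0.53 averaged, -0.31 to -0.05 and -0.56 to -0.15 for genotype in cold, -0.30 to 0.09 and -0.54 to 0.34 for genotype at TN, and -0.31 to 0.14 and -0.70 to 0.10 for the interaction. Signs turned without cold WT mouse 2 for genotype in cold (Cdk1 up to 0.015, Foxm1 0.052, Pcna 0.014), without TN WT mouse 2 at TN (Aurkb 0.15, Mcm3 0.057, Rrm1 0.036) and without TN HIF2α AKO mouse 1 for averaged Ccne1 (0.0038). The lowest values with 1 library left out were -0.37 for Cdk1 in cold, -0.40 and -0.37 for Mcm3 and Rrm1 at TN and -0.18 for averaged Ccne1. No setting called a member for genotype or interaction. The 24 scores moved by at most 0.034 with other scaling or prior count.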
